A study of Mus musculus with 6 samples.

Results

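The sirtuins are the 7 mammalian deacylases that need NAD+ as a cosubstrate, encoded by Sirt1 to Sirt7. Their genes were found as the non-control array probes whose accession maps to one of these symbols, which gave 10 of the 39429 probes: 1 each for Sirt1, Sirt2, Sirt3 and Sirt5, and a brighter and a dimmer probe each for Sirt4, Sirt6 and Sirt7. The arrays hold 21367 named genes in all. Liver RNA was hybridised to 1-colour Agilent arrays from 3 wild-type (WT) mice and 3 Itpr2 knockout (KO) mice, both described as C57Bl/6 and 23 months old. Itpr2 encodes an inositol trisphosphate receptor, a channel that releases calcium from the endoplasmic reticulum. Both genotypes were kept on a standard diet in a pathogen-free facility, belonged to a survival cohort and received no treatment, and the livers were snap-frozen. The allele and the deleted part of the gene are not given in the sources used here. The 3 mice of each genotype were independent animals. The comparison asks how mRNA of this family in the liver of old mice differed without Itpr2.

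Sirtuins remove acetyl and other acyl groups from lysines and consume one NAD+ for each group removed, so their activity depends on the NAD+ supply as well as on their own amount. Sirt1, Sirt6 and Sirt7 act mainly in the nucleus, Sirt2 mainly in the cytosol, and Sirt3, Sirt4 and Sirt5 in mitochondria. In liver the family is known for its part in fasting metabolism, fatty acid oxidation, the urea cycle and genome maintenance, and it has long been studied in ageing. Arrays measure mRNA, not enzyme activity.

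Promoter sequences of Sirt1 and Sirt3 are shown because their mRNA varied least among wild-type mice relative to the knockout mice, as described later. They are RefSeq windows of assembly GRCm38.p6, 300 bases long and lying mostly before a transcript start, written 5′ to 3′ on the minus strand. Capitals mark an E-box (CACGTG) or an ETS core (CCGGAAG, or CTTCCGG when it lies on the other strand). The Sirt1 window is chr10:63338986-63339285 and the Sirt3 window is chr7:140882260-140882559, the one of its 2 windows that holds an ETS core.
Sirt1: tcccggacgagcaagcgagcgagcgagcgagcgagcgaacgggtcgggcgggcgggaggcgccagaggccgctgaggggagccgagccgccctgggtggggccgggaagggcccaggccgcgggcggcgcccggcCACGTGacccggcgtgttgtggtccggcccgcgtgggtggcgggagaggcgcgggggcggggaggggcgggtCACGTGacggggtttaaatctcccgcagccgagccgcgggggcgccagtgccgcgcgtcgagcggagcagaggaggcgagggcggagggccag
Sirt3: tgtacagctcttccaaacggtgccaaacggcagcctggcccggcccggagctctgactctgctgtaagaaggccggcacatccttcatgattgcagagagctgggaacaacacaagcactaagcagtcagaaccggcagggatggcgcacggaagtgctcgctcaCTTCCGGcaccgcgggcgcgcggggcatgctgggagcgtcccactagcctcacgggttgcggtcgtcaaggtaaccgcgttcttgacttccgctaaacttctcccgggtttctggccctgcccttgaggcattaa

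All 7 genes had at least 1 window and 9 windows were found in all. The motifs were searched on both strands, and a site that reads the same on both was counted once. The E-box occurred in the Sirt1 window alone, at 2 sites, and in 7.15% of all 32851 windows of that length. The ETS core occurred in 3 of the 9 sirtuin windows, of Sirt3, Sirt6 and Sirt7, and in 8.86% of all windows. The GC box (GGGCGG) occurred in 6 of the 9 and in 35.7% of all, so windows of all sirtuins but Sirt4 held one. The cAMP response element (TGACGTCA) and the TATA box letters (TATAAA) occurred in 0 of the 9, against 1.79% and 13.6% of all windows. The Sirt1 window had a GC content of 79.0% and the Sirt3 window shown one of 61.0%. A match is a description of letters and was not set against binding data.

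All 10 sirtuin probes were well above background on all 6 arrays and all entered the test, as did 22304 probes in total. Across arrays 57.6% to 59.5% of probes were well above background, and no spot was saturated. All 10 hepatocyte markers, albumin among them, were well above background on every array. Their mean log2 level was 6.33 to 6.50 in wild type and 6.54 to 6.72 in the knockout, without overlap, while the log2 of their summed signal did overlap, at 10.2 to 10.3 and 10.2 to 10.6. The part of this difference in the sirtuin levels was not tested. On WT 1 and KO 3 all 9 striated muscle markers were well above background, with mean log2 levels of 2.01 and 2.13, whereas on the 4 other arrays 2 of 9 were, with means of -6.86 to -6.79. The fat cell markers were also highest on KO 3 (mean -0.28), followed by WT 1 (-2.43) and KO 2 (-3.02), and lay between -5.94 and -4.99 on the 3 other arrays. Results are therefore also given without WT 1 and KO 3. In whole liver, fewer cells of a type and less RNA per cell cannot be told apart. The arrays lay on 2 slides, slide 1 with WT 1, WT 2 and KO 1 and slide 2 with WT 3, KO 2 and KO 3.

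The targeted gene was represented by 1 probe, whose place relative to the deletion is not given, so it does not by itself check the labels. Its level was 3.04, 3.07 and 3.08 in wild type and 2.54, 2.38 and 2.20 in the knockout, with no overlap, and the exact two-sided permutation p was 0.1, the smallest that 3 against 3 arrays allow. Its log2 change was -0.69 ± 0.14 (SE, n = 3 and 3), with a limma adjusted p of 0.804. The array's names of the sirtuin probes are A_55_P2030428 (Sirt1), A_52_P547447 (Sirt2), A_55_P2075140 (Sirt3), A_51_P424641 and A_55_P2185372 (Sirt4, brighter and dimmer), A_51_P411909 (Sirt5), A_55_P2072468 and A_55_P2185794 (Sirt6), and A_51_P352264 and A_55_P2045697 (Sirt7). Levels throughout are log2 processed signals less the 75th percentile of their array, changes are knockout minus wild type, and a level of one probe is not compared with that of another.

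No sirtuin passed the test. With limma and Benjamini-Hochberg adjustment over all probes tested, 0 of 10 sirtuin probes had an adjusted p under 0.05, where 0.00448% of all probes did (1 probe of 22304, for Mansc4). At an unadjusted p under 0.05 the count was again 0 of 10, against 6.1% of all probes. The mean was higher in the knockout for 7 of 10 probes and lower for 3 (6 of 10 higher with median scaling and 5 of 10 with normexp background correction), and the median change of the 10 was 0.11 on the log2 scale, against 0.013 for all probes tested. The genotypes did not overlap for 1 of 10 sirtuin probes, the dimmer Sirt6 probe, against 12% of all probes compared. Each 95% interval is for 1 probe under the main processing and is not adjusted for the number of probes. The lowest bound over the 10 probes was a 0.692-fold level in the knockout, for the dimmer Sirt7 probe. The highest was a 1.63-fold level, for Sirt1. These bounds do not cover the choice of processing. Like all limma intervals given here, they assume the same variance in both genotypes. The knockout SD was the larger for most sirtuin probes, as described later. Over the alternatives given at the end, log2 changes reached 1.19 (dimmer Sirt6 probe), 0.69 (dimmer Sirt4 probe) and -0.67 (Sirt2), outside the intervals of these probes.

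**Figure D1:**
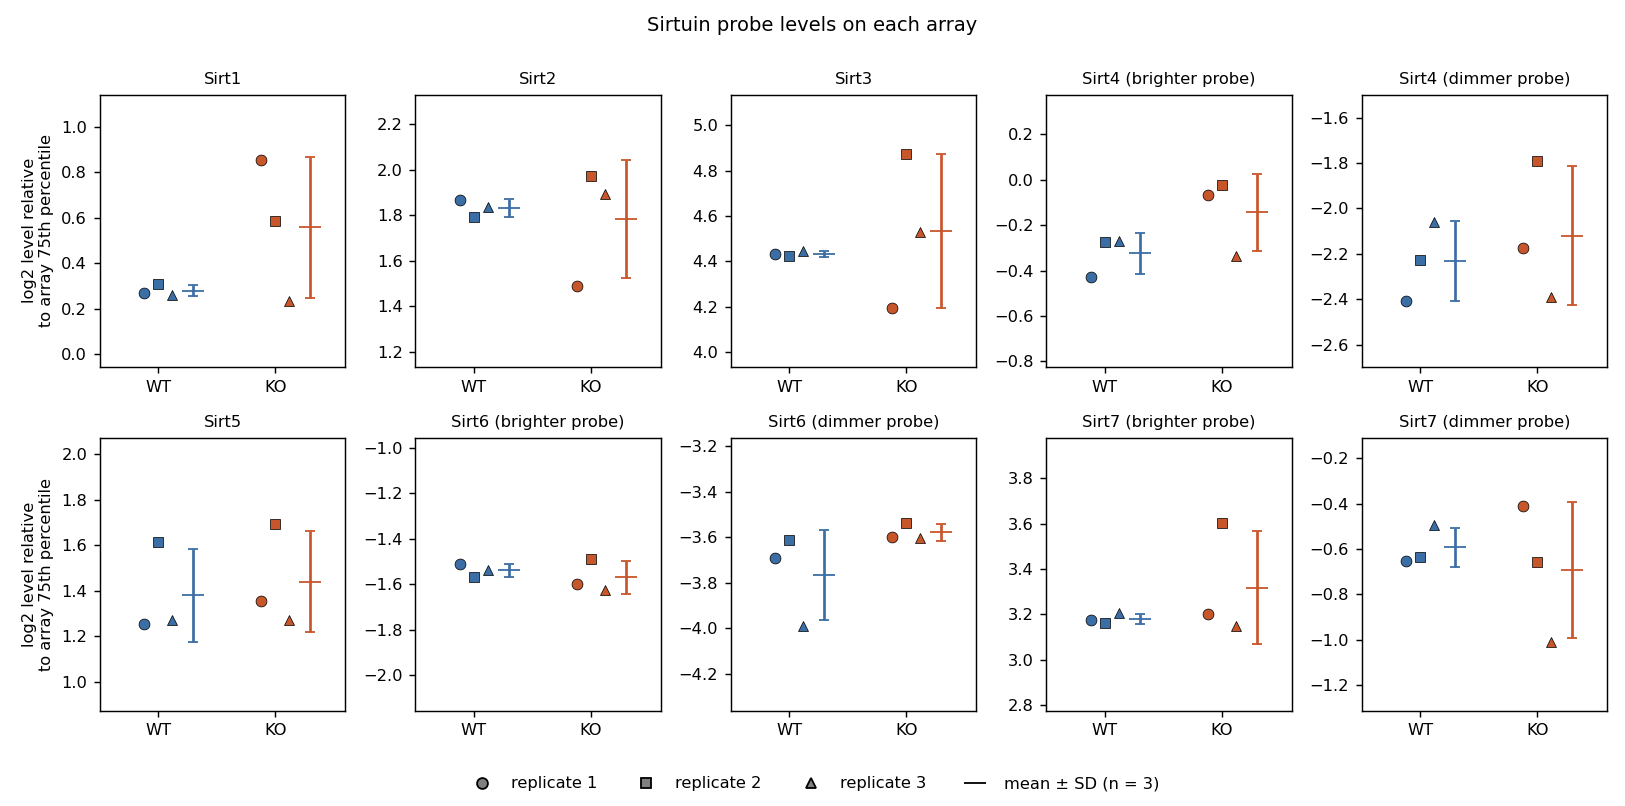
Level of each of the 10 sirtuin probes on every array, as log2 signal relative to the array's 75th percentile on the vertical axis; points are mice, the cross-lines and bars are mean ± SD (n = 3 per genotype), and every panel spans 1.2 log2 units. The wild-type points lie close together for Sirt1, Sirt2, Sirt3, the brighter Sirt6 probe and the brighter Sirt7 probe, and the dimmer Sirt6 probe alone has no overlap between genotypes.

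Among the nuclear members, Sirt1 deacetylates transcriptional regulators such as p53, FOXO proteins and PGC-1alpha. Its level was 0.27, 0.31 and 0.26 in WT 1, WT 2 and WT 3, and 0.85, 0.59 and 0.23 in KO 1, KO 2 and KO 3. KO 1 and KO 2 lay above all wild-type mice, and KO 3 lay just below them. The wild-type mean was 0.28 ± 0.024 (SD, n = 3) and the knockout mean 0.56 ± 0.31 (SD, n = 3). The change of Sirt1 was 0.28 ± 0.18 (SE), with a 95% interval of -0.15 to 0.71 and a limma adjusted p of 0.819, and it was the largest of the 10 sirtuin changes in size. It was 0.56 within slide 1, where KO 1 was the only knockout array, and 0.15 within slide 2, where WT 3 was the only wild-type array. Without KO 3 the change was 0.44 ± 0.14 (SE), with a limma adjusted p of 0.576, and Sirt1 was then the 1 sirtuin probe with an unadjusted p under 0.05. KO 3 is one of the arrays with muscle and fat markers, and the part of these markers in its Sirt1 level was not tested.

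Sirt6 is a chromatin-bound deacylase involved in DNA repair and in repression of glycolytic genes. Its brighter probe had levels of -1.51, -1.57 and -1.54 in wild type and -1.60, -1.49 and -1.62 in the knockout. The mice of both genotypes were intermixed, and this probe varied less between mice than nearly all others: 1.18% of the probes tested had a pooled SD as low or lower. The change was -0.031 ± 0.12 (SE), with a 95% interval of -0.31 to 0.25 and a limma adjusted p of 0.970. Its dimmer probe had levels of -3.69, -3.61 and -3.99 in wild type and -3.60, -3.54 and -3.60 in the knockout. All 3 knockout mice lay above all 3 wild-type mice, but WT 3 stood low and the gap between WT 2 and KO 3 was small. The change was 0.19 ± 0.14 (SE) with a limma adjusted p of 0.838, and the exact permutation p was 0.1, the smallest possible. The 2 Sirt6 probes thus differed in the sign of their change, and the difference between their changes, -0.22, had an exact permutation p of 0.2.

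Sirt7 is the nucleolar sirtuin and is known for its link to ribosomal RNA transcription. Its brighter probe had levels of 3.17, 3.16 and 3.20 in wild type and 3.20, 3.60 and 3.15 in the knockout. KO 2 stood above the other 5 mice, which lay close together. The change was 0.14 ± 0.16 (SE), with a 95% interval of -0.24 to 0.52 and a limma adjusted p of 0.880. Its dimmer probe had levels of -0.65, -0.63 and -0.49 in wild type and -0.41, -0.66 and -1.01 in the knockout, so that the knockout mice lay on both sides of the wild-type range. The change was -0.10 ± 0.18 (SE) with a limma adjusted p of 0.931, and it was 0.23 within slide 1 and -0.34 within slide 2. The probe that was highest in KO 2 was thus not matched by the other Sirt7 probe, and the 2 changes differed by 0.24 (exact permutation p = 0.4).

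Sirt2, the mainly cytosolic member, is known as a tubulin deacetylase. Its level was 1.87, 1.79 and 1.84 in wild type and 1.49, 1.97 and 1.89 in the knockout. KO 1 was lowest of all 6 mice, and KO 2 and KO 3 were highest. The means were 1.83 ± 0.038 and 1.79 ± 0.26 (SD, n = 3 each), and the change of -0.046 ± 0.16 (SE) had a 95% interval of -0.44 to 0.34 and a limma adjusted p of 0.969. It was -0.34 within slide 1 and 0.098 within slide 2.

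Among the mitochondrial members, Sirt3 is the main mitochondrial deacetylase and acts on enzymes of fatty acid oxidation and antioxidant defence. Its level was 4.43, 4.42 and 4.45 in wild type and 4.20, 4.87 and 4.53 in the knockout. The wild-type mice were nearly identical, KO 1 lay below them and KO 2 and KO 3 above. The means were 4.43 ± 0.013 and 4.53 ± 0.34 (SD, n = 3 each). The change of Sirt3 was 0.098 ± 0.19 (SE), with a 95% interval of -0.35 to 0.55 and a limma adjusted p of 0.935, and it was -0.23 within slide 1 and 0.25 within slide 2.

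Sirt4 acts on glutamate dehydrogenase and on lipoyl groups in mitochondria. Its brighter probe had levels of -0.43, -0.27 and -0.27 in wild type and -0.069, -0.022 and -0.34 in the knockout. KO 1 and KO 2 lay above all wild-type mice, as for Sirt1, and KO 3 fell within their range. The change was 0.18 ± 0.14 (SE), with a 95% interval of -0.16 to 0.52 and a limma adjusted p of 0.839, and it was 0.28 within slide 1 and 0.090 within slide 2. The dimmer probe had levels of -2.41, -2.23 and -2.06 in wild type and -2.18, -1.79 and -2.39 in the knockout, with a change of 0.11 ± 0.19 (SE) and a limma adjusted p of 0.928. Both Sirt4 probes were lowest in WT 1 and highest in KO 2, and their changes had the same sign.

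Sirt5 removes succinyl, malonyl and glutaryl groups and acts on the urea cycle enzyme Cps1. Its level was 1.25, 1.61 and 1.27 in wild type and 1.35, 1.69 and 1.27 in the knockout. The second mouse of each genotype was high and the other mice lay together, so the genotypes overlapped throughout. The change was 0.060 ± 0.18 (SE), with a 95% interval of -0.36 to 0.48 and a limma adjusted p of 0.959.

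**Figure D2:**
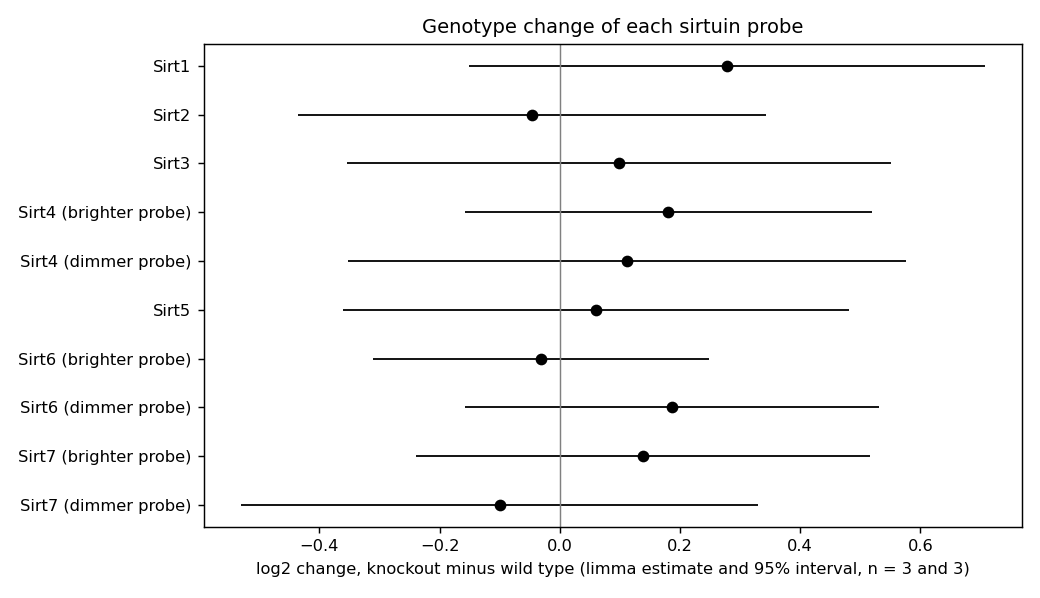
Log2 change of each sirtuin probe (knockout minus wild type, horizontal axis) as limma estimate with its 95% interval (n = 3 and 3). All 10 intervals include 0, and the widest reach is to 0.71 for Sirt1.

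Without WT 1 and KO 3, the change of Sirt1 was 0.44, of Sirt2 -0.082 and of Sirt3 0.099. The brighter probes of Sirt4, Sirt6 and Sirt7 then had changes of 0.23, 0.0094 and 0.22, their dimmer probes 0.16, 0.24 and 0.028, and Sirt5 0.080. The mean was then higher in the knockout for 9 of 10 probes, and 0 of 10 had an unadjusted or adjusted limma p under 0.05. Without KO 2 the mean was higher in the knockout for 3 of 10 probes. Leaving out KO 2 turned the sign for Sirt3 (-0.072), Sirt5 (-0.066), the dimmer Sirt4 probe (-0.053) and the brighter Sirt7 probe (-0.0039). Leaving out KO 1 turned it for Sirt2 (0.10), leaving out KO 3 for the dimmer Sirt7 probe (0.058) and leaving out WT 1 for Sirt5 (-0.0036). The sign of these changes thus rested on single arrays, whereas Sirt1, the brighter Sirt4 probe and both Sirt6 probes kept theirs whichever array was left out. For the dimmer Sirt6 probe no array left out could have turned it, since its genotypes did not overlap. The signs of Sirt1 and the brighter Sirt6 probe turned in other alternatives, given at the end.

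KO 2 had the highest level of all 6 mice on 8 of 10 sirtuin probes, and KO 1 on the 2 others, Sirt1 and the dimmer Sirt7 probe. Across all probes compared, KO 2 was highest on 21.4%. The lowest level lay in KO 3 on 4 sirtuin probes, in WT 1 on 3, in KO 1 on 2 and in WT 3 on 1. KO 3 was lowest on 23.1% of all probes compared and WT 1 on 10.1%. Neutrophil markers had their lowest mean on KO 2 (-2.35) and their highest on KO 1 (2.00), and the Kupffer cell markers were also lowest on KO 2 (2.62, against 2.79 to 4.15 on the other arrays). The part of these cells in the KO 2 levels was not tested.

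The spread between mice also differed between genotypes. For Sirt3 the SD between mice was 26.6 times as large in the knockout as in wild type, a ratio that 0.401% of the 22167 probes compared reached. The ratio was 12.7 for Sirt1, 11.47 for the brighter Sirt7 probe and 6.78 for Sirt2, and 1.65%, 2.07% and 5.45% of probes reached these. In each of these genes the 3 wild-type mice lay within 0.076 of each other on the log2 scale. The knockout SD was the larger one for 9 of 10 sirtuin probes, against 71.3% of all probes compared, where the median ratio was 1.58. The exception was the dimmer Sirt6 probe, with a ratio of 0.19. These ratios rest on 3 mice per genotype and are given as a description, with no test.

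**Figure D3:**
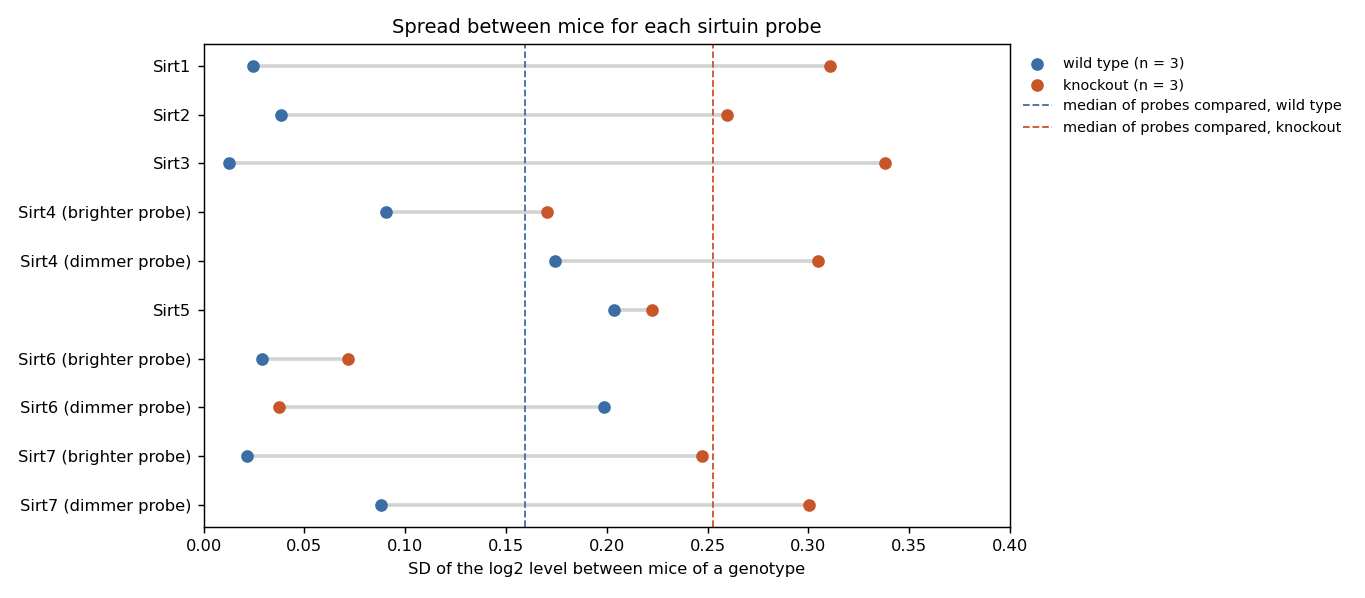
SD of the log2 level between the 3 mice of each genotype (horizontal axis) for each sirtuin probe, with dashed lines at the median SD of all probes compared (0.16 in wild type, 0.25 in the knockout). The knockout point lies right of the wild-type point for 9 of 10 probes, with the dimmer Sirt6 probe as the exception.

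Genes whose pattern over the 6 arrays was most like that of a sirtuin were ranked by Pearson r among 13116 genes, using the brighter probe. They were Rab35 (0.991) and Acacb (0.989), an acetyl-CoA carboxylase, for Sirt1, Ppp4r4 (0.996) and Auh (0.994) for Sirt2, and Dtnbp1 (0.994) and Ces2g (0.993) for Sirt3. They were Zrsr1 (0.991) and Sik3 (0.989) for Sirt4, Mfn1 (0.985), a mitochondrial fusion protein, and Ube2q1 (0.985) for Sirt5, Nfu1 (0.998) and Mcm8 (0.997) for Sirt6, and Ceacam2 (0.994) and Tom1l2 (0.991) for Sirt7. Between 89 and 296 genes had an r above 0.9 with a given sirtuin, over 6 arrays that share slides and of which 2 carry muscle markers. A search of 13116 genes over 6 arrays can give such high values for unrelated genes. The ranking is a description, with no test.

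NAD+ supply was described by 21 genes listed under NAD+ synthesis, of which 18 were measured (Nmnat2, Nmrk2 and Ido1 did not pass the filter on dim probes). The list also holds Acmsd, which diverts the tryptophan route away from NAD+. Nadk, Nadk2 and Slc25a51 in it do not make NAD+ either. Its counts and median thus do not give a direction of NAD+ synthesis. Of the 18, 0 passed the adjusted threshold, 1 was higher and 1 lower at an unadjusted limma p under 0.05, and 11 had a higher and 7 a lower mean. Of all 13669 genes measured, 5.96% were at that p, 3.16% higher and 2.79% lower, and 52.6% had a higher mean. The genotypes did not overlap for 1680 of these 13669 genes. The median change of the 18 was 0.12, against 0.014 for all genes, and it turned to -0.43 with normexp background correction.

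Nampt, the rate-limiting enzyme of NAD+ salvage from nicotinamide, was the lower of these. Its level was 2.01, 2.05 and 1.86 in wild type and 1.35, 1.50 and 1.12 in the knockout. All 3 knockout mice lay below all 3 wild-type mice. The change was -0.65 ± 0.15 (SE), a 0.637-fold level with a 95% interval of 0.498 to 0.814, and the limma adjusted p was 0.804. It was -0.68 within slide 1 and -0.55 within slide 2, and -0.53 without WT 1 and KO 3. A single probe stands for Nampt.

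Acmsd, a decarboxylase that diverts the tryptophan route away from NAD+, had levels of -0.85, -1.29 and -1.35 in wild type and -0.15, -0.39 and 1.23 in the knockout. The genotypes did not overlap, and KO 3 stood well above the other knockout mice. The change was 1.39 ± 0.43 (SE) with a limma adjusted p of 0.804, and it was 0.90 without KO 3. Nmrk1, a nicotinamide riboside kinase, had a change of -0.45 ± 0.22 (SE), which was -0.90 within slide 1 and 0.050 within slide 2. Its genotypes overlapped.

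**Figure D4:**
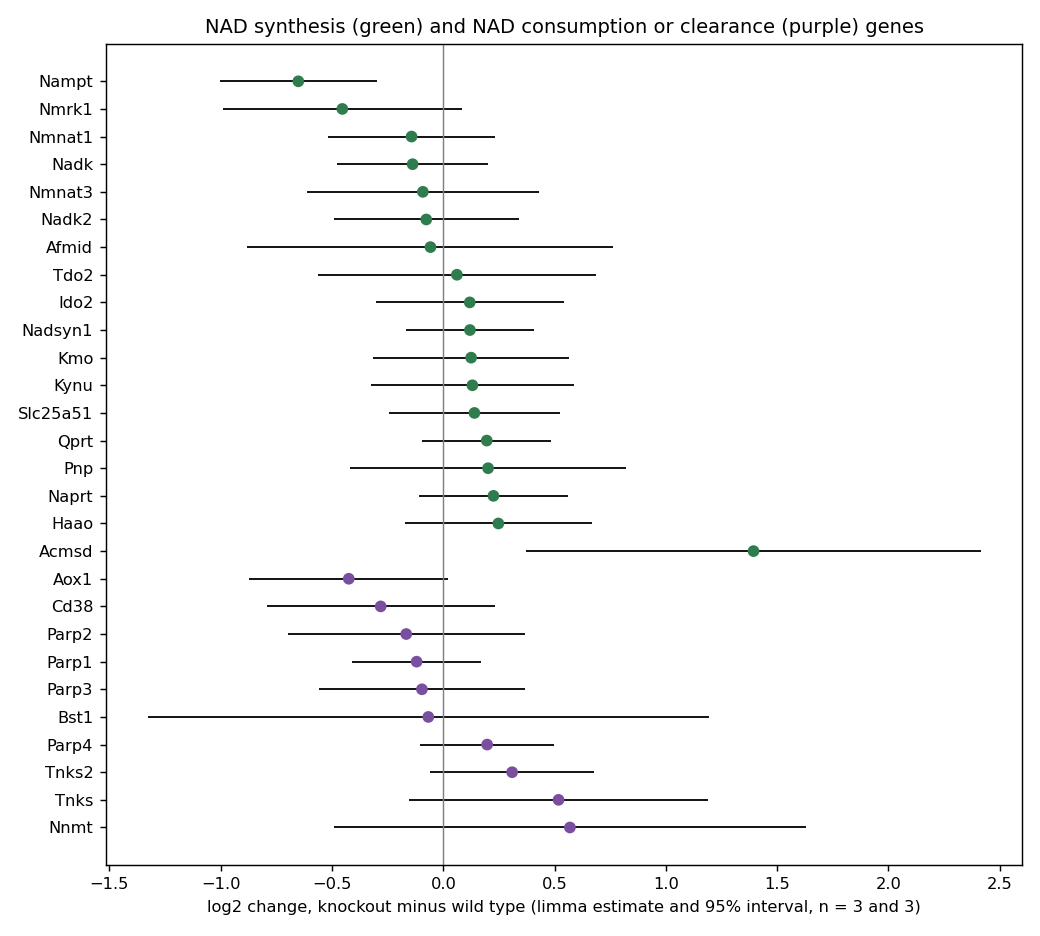
Log2 change (knockout minus wild type, horizontal axis) with 95% interval for the 18 measured genes listed under NAD+ synthesis, Acmsd among them, and the 10 of NAD+ consumption or nicotinamide clearance (n = 3 and 3). Nampt lies lowest at -0.65 and Acmsd highest at 1.39, and theirs are the intervals that do not include 0; neither passed the adjusted threshold.

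Of 11 genes that consume NAD+ or clear nicotinamide, 10 were measured (Sarm1 was not), 4 with a higher and 6 with a lower mean, and 0 passed at either p. Of all genes measured, 52.6% had a higher mean and 5.96% had an unadjusted limma p under 0.05. At that p, 2 of the 10 were higher and 1 lower with normexp, and 1 was higher and 1 lower without KO 1. Aox1 was also lower at that p with a trended and robust variance prior and without WT 1. The median change of the 10 was -0.082, and it was 0.22 within slide 1, -0.28 within slide 2, 0.074 without WT 3 and 0.11 without KO 2. Parp1, the main poly-ADP-ribose polymerase, had a change of -0.12 ± 0.12 (SE). The tankyrases Tnks and Tnks2 had changes of 0.52 ± 0.28 and 0.31 ± 0.15, and Aox1, which oxidises nicotinamide metabolites, one of -0.42 ± 0.19. Nnmt, which methylates nicotinamide, had levels of 3.75, 3.02 and 4.13 in wild type and 5.04, 3.54 and 4.03 in the knockout. KO 1 was the highest and WT 2 the lowest, and the rest overlapped. Its change was 0.57 ± 0.44 (SE), with 1.65 within slide 1 and -0.35 within slide 2.

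Of 19 genes that regulate sirtuins or their expression, 18 were measured (Foxo3 was not), 9 with a higher and 9 with a lower mean. Their median change was -0.013 (above 0 in 6 alternatives, at most 0.054, without KO 3). By their brightest probes 0 had an unadjusted limma p under 0.05. Of all genes measured, 52.6% had a higher mean and 5.96% were at that p. With normexp 4 of the 18 were higher and 2 lower at that p, and with the slide as a block 0 were higher and 1 lower (Hic1). Nrf1 was higher at that p with the replicate block, with array weights and without WT 2 or KO 1. Usp22 was lower without WT 1 or KO 1, and without KO 3 Foxo1 was higher and E2f1 lower. Ccar2, which binds and inhibits Sirt1, had levels of -0.50, -0.58 and -0.53 in wild type and -0.50, -0.30 and -0.28 in the knockout. All knockout mice lay above all wild-type mice, KO 1 only barely, and the change was 0.18 ± 0.13 (SE) with a limma adjusted p of 0.829. Ppargc1a, which encodes PGC-1alpha, had a change of 0.26 ± 0.16 (SE) at its brightest probe and of 0.59 at its other probe, which had an unadjusted limma p of 0.0178. Nrf1, a nuclear respiratory factor, had a change of 0.51 ± 0.22 at its brightest probe, but -0.19 and 0.31 at its other probes. Usp22, a deubiquitinase that stabilises Sirt1, had a change of -0.41 ± 0.20, and Hic1, a repressor of Sirt1, one of -0.36 ± 0.20.

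All 33 nuclear and cytosolic substrates and partners were measured. Their mean was higher in the knockout for 24 and lower for 9, where 52.6% of all genes were higher. The median change was 0.10, and it turned to -0.16 with normexp. At an unadjusted limma p under 0.05, 2 were higher and 0 lower, where 3.16% of all genes were higher and 2.79% lower. Acss2, a cytosolic acetyl-CoA synthetase that Sirt1 activates, had levels of 4.28, 4.15 and 4.67 in wild type and 5.09, 5.77 and 5.03 in the knockout. All 3 knockout mice lay above all 3 wild-type mice. The change was 0.93 ± 0.25 (SE) with a limma adjusted p of 0.804, 0.88 within slide 1 and 0.73 within slide 2, and the other Acss2 probe had a change of 0.81. Stat3, a transcription factor of the acute phase response, was the other, at 0.82 ± 0.32 (SE), but its change was 1.52 within slide 1 and 0.20 within slide 2, and its genotypes overlapped. The unadjusted limma p of Stat3 was 0.058 with the slide as a block, and it was also above 0.05 without WT 1, WT 2, KO 1 or KO 3. Crtc2, a coactivator of fasting gluconeogenesis, had changes of 0.30 ± 0.13 (SE) at its brightest probe and 0.30 at the other.

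All 29 mitochondrial and peroxisomal substrates were measured, with a higher mean in the knockout for 9 and a lower one for 20. Their median change was -0.088, and it was -0.21 within slide 1 and 0.0038 within slide 2, 0.0079 without KO 1 and -0.68 with normexp. At an unadjusted limma p under 0.05, 1 was higher and 0 lower, against the same 3.16% and 2.79% of all genes. It was Cps1, the first enzyme of the urea cycle and a substrate of Sirt5, with levels of 4.10, 3.63 and 3.82 in wild type and 4.15, 4.55 and 4.32 in the knockout. The genotypes did not overlap, though WT 1 and KO 1 lay close, and the change was 0.49 ± 0.18 (SE) with a limma adjusted p of 0.804. It was 0.29 within slide 1 and 0.62 within slide 2. The unadjusted limma p of Cps1 was 0.069 with the slide as a block and 0.074 with the replicate block, and also above 0.05 without WT 2, WT 3, KO 2 or KO 3. With the slide as a block the list had 0 genes at that p, and with normexp, where Cps1 turned to -0.21, it had 10 lower and 0 higher. Otc, the next enzyme of that cycle, had a change of 0.30 ± 0.14 at its brightest probe and of -0.20 at its other probe. Pdha1, a subunit of pyruvate dehydrogenase, had a change of -0.40 ± 0.18.

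**Figure D5:**
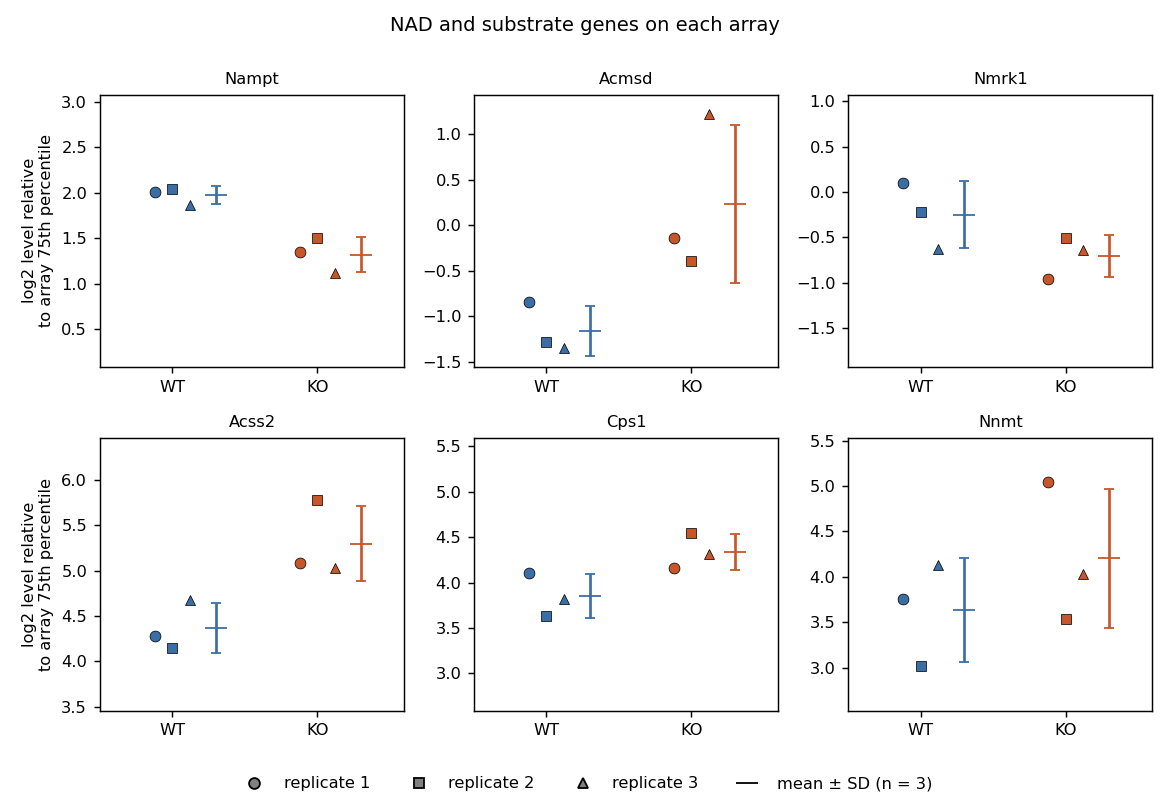
Levels on each array, as log2 signal relative to the array's 75th percentile, for 6 genes of NAD+ metabolism or sirtuin substrates; points are mice, bars are mean ± SD (n = 3 per genotype), and every panel spans 3 log2 units. The genotypes do not overlap for Nampt, Acmsd, Acss2 and Cps1, which are among the genes of smallest limma p in their lists. They overlap for Nmrk1 and Nnmt. Of all probes compared, 12% had no overlap.

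The classical histone deacetylases, which use zinc rather than NAD+, served as a comparison family. All 11 were measured, 9 with a higher and 2 with a lower mean, a median change of 0.12 and 0 at an unadjusted limma p under 0.05. Of all genes measured, 52.6% had a higher mean and 5.96% were at that p. With normexp, 3 of the 11 were higher and 0 lower at that p, and 1 was higher without KO 1. Hdac6, which like Sirt2 deacetylates tubulin, had a change of 0.23 ± 0.11 (SE) with no overlap and a limma adjusted p of 0.804. Hdac4 and Hdac10 had changes of 0.23 ± 0.13 and 0.23 ± 0.17. The median was -0.0010 within slide 1 and 0.28 within slide 2.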

How the data were processed

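The deposited scanner tables hold processed intensity values of 1-colour Agilent arrays, background-subtracted by Feature Extraction (11.5.1.1 per the file headers, 10.7.3.1 per the submitters' processing notes). A matrix of log2 values for 20644 probes, deposited by the authors, was used as an alternative. Against the scanner values it matched 75th-percentile scaling with each probe centred on its median, higher meaning more signal, with column medians from -0.0127 to 0.0106. Its columns for KO 2 and KO 3 matched the scanner tables of KO 3 and KO 2, so arrays are named by the scanner tables.

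For each probe, the array's 75th percentile over probes was subtracted from the log2 intensity. Control spots (1377) and 818 outlier spots were left out, and spots of a probe averaged. Accessions were named through a GRCm38.p6 gene table (28330 probes with 1 symbol, 11099 without). A probe was tested if well above background on all 3 arrays of a genotype. Genotypes were compared with limma 3.58.1 in R 4.3.3 (lmFit, eBayes, two-sided, Benjamini-Hochberg over 22304 probes, threshold 0.05) and single values by exact permutation. For pathway genes the brightest probe stood for the gene. The number of arrays limits the precision. The procedure was run on simulated data with the same variance in both genotypes and with changes larger than those of the sirtuins. That run does not bear on the sirtuin result.

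Members and gene lists were chosen with earlier results of these data known. Named were all sirtuin and Itpr2 probes, the 3 genes of smallest p per list, Nampt, Parp1, Nnmt, Ccar2 and Ppargc1a, and the 2 genes most like each sirtuin. Marker lists also covered T and NK, B, endothelial, stellate and bile duct cells, and the mean levels of these did not separate the genotypes. Slides and scans coincided and each held both genotypes. Replicate numbers did not pair the mice: deviations of same-numbered arrays correlated at -0.20, 0.047 and -0.26. Alternatives were other background correction, scaling, filters, variance priors, array weights, blocks, the authors' matrix and arrays left out.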

Additional observations from a re-analysis of the deposited data

How the results depend on the processing

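Over 22 alternatives no sirtuin change passed the adjusted threshold (197 tested values, smallest limma adjusted p 0.136, with normexp). Of 217 sirtuin changes 21 turned sign, and of 484 changes of named partner genes 11 did. Alternatives that altered only the filter on dim probes, the probe kept per gene, the variance prior or the replicate block left each change as it was. Their values are in these counts and could not have turned. Normexp background correction turned Sirt1 (-0.033), Sirt3 (-0.56), Sirt5 (-0.43), the brighter (-0.45) and dimmer (0.038) Sirt7 probes, the brighter Sirt6 probe (0.46), Tnks2 (-0.41), Nnmt (-0.17), Usp22 (1.07), Crtc2 (-0.070), Otc (-0.26), Cps1 (-0.21) and Hdac6 (-0.27). It was run on the median signal, since no column of mean signals was read, and it compressed KO 2 and KO 1, whose interquartile ranges were 0.63 and 2.17 against 3.25 to 3.57 on the other arrays (4.49 to 4.72 on all arrays without it). Median scaling, which moved the median change of all probes to -0.068, turned Sirt5 (-0.021). Leaving out each array in turn gave ranges of -0.066 to 0.18 for Sirt5, -0.14 to 0.10 for Sirt2, -0.072 to 0.27 for Sirt3, -0.053 to 0.25 for the dimmer Sirt4 probe, -0.0039 to 0.22 for the brighter Sirt7 probe and -0.24 to 0.058 for the dimmer one. Without WT 1 and KO 3, an alternative chosen after seeing the data, the brighter Sirt6 probe (0.0094) and the dimmer Sirt7 probe (0.028) turned. The 1 probe past the threshold among all probes became 0 with normexp, with all 6 arrays above background, without WT 1 and KO 3 and with the replicate block, and ranged from 0 to 1 over arrays left out. The replicate block changed no other adjusted call, but at an unadjusted p Cps1 was lost (0.074) and Nrf1 (0.017), Pdha1 (0.046) and other list members were gained. The Itpr2 change was -0.52 within slide 1. The cause of these changes was not tested. Nampt, Acmsd and Acss2 kept their sign in every alternative run, Nampt between -1.10 and -0.53, Acmsd between 0.90 and 1.77 and Acss2 between 0.36 and 1.09. Their genotypes did not overlap, so no array left out and no split by slide could have turned these signs. For Acss2 the unadjusted limma p was 0.25 with normexp.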
